A study of Mus musculus with 12 samples.

Results

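The 8 genes described here encode transcription factors of the sympathetic lineage and of neuroblastoma, namely Phox2a, Hand2, Gata2, Gata3, Isl1, Tbx2, Mycn and Insm1. They were chosen by symbol, and all 8 had a row in both deposited tables, which hold 15767 genes. All 8 also passed the filter on low counts, which left 13014 genes for testing. RNA came from Neuro-2a, an established mouse neuroblastoma line with the genotype given as WT, in 12 libraries of 4 per treatment. The treatments were transfection with a control small RNA (miR-Con in the labels, NC in the titles), with a mimic that supplies miR-155, or with an inhibitor of miR-155. All groups shared the line, the RNA Fit reagent, medium without serum or antibiotics for the first 4 h, and harvest on day 2. The labels number the libraries of each treatment 1 to 4 and do not say what a number stands for or whether the libraries came from separate cultures. The p-values therefore rest on the spread between libraries that may be technical repeats. The series title names a question on miR-155 and a mitochondrial gene axis, and the 8 factors are outside that question.

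Sympathetic neurons and adrenal chromaffin cells arise from the neural crest, and neuroblastoma arises from the same lineage. BMP signals start a network of factors in which Phox2a, Hand2, Gata2 and Gata3 act together to turn on catecholamine genes such as Th and Dbh. In neuroblastoma, a small group of these factors binds the enhancers of its own members as well as those of other lineage genes, and is called a core regulatory circuit. Isl1 and Tbx2 have been placed in that circuit, Mycn is the MYC family member amplified in aggressive tumours, and Insm1 is a zinc-finger repressor that acts in neuroendocrine differentiation.

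Because the treatments target miR-155, the 3' UTRs of the 8 mRNAs were searched for matches to its seed, which is in capitals in the mature mouse sequence (RefSeq, GRCm38.p6, chr16:84714143-84714165, plus strand).
mmu-miR-155-5p: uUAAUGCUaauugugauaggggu
In the longest annotated 3' UTR of each gene (GENCODE M21, GRCm38), 0 of the 8 held an 8mer (AGCATTAA), a 7mer-m8 (AGCATTA) or a 7mer-A1 (GCATTAA) match. Those matches occurred in 3.02%, 8.37% and 8.10% of 15419 genes with a 3' UTR. The shorter 6mer (GCATTA), present in 20% of those genes, occurred in Phox2a alone among the 8. It is shown in capitals in the 30 bases around it, which lie at chr7:101822194-101822223 on the plus strand.
Phox2a 3' UTR: cccttctggacctgGCATTAtccctcccta
The base before the match is G and the base after it is T, so the match extends to neither 7mer form. A match is a description of the letters and not evidence of binding.

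In control libraries the 8 factors covered a wide range of levels, on the deposited TPM scale, which is per transcript length and so allows genes to be compared. Hand2, a basic helix-loop-helix factor required for noradrenergic differentiation, was the most abundant, with 1791, 1833, 1815 and 1521 TPM in controls 1 to 4 and rank 51 of the 15767 genes by mean control TPM. Phox2a, a paired-like homeodomain factor that activates Dbh, followed with 980.3, 1054, 1022 and 703.4 TPM and rank 134. In both genes control 4 was the lowest library. The ranges of Hand2 and Phox2a over all 12 libraries, 1521 to 1980 TPM and 703.4 to 1078 TPM, did not overlap.

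Insm1 measured 498.1, 449.5, 475.9 and 283.0 TPM in controls 1 to 4. Gata2, a zinc-finger factor needed for sympathetic neuron maturation, measured 206.2, 186.5, 195.2 and 168.0 TPM. Hand2, Phox2a, Insm1 and Gata2 held the first 4 places in that order in 12 of 12 libraries. The remaining 4 factors were lower and closer together, and their ranges over the 12 libraries overlapped. Tbx2, a T-box repressor, measured 72.5, 80.5, 75.9 and 48.4 TPM in controls 1 to 4. Isl1, a LIM-homeodomain factor of sympathetic and sensory neurons, measured 53.7, 38.6, 44.7 and 59.9 TPM. It was the only one of the 8 that was highest in control 4. Gata3, the GATA factor on which sympathetic neuron survival and Th expression depend, measured 53.0, 43.5, 50.6 and 31.8 TPM. Mycn measured 53.3, 42.7, 43.5 and 32.1 TPM and stood last by mean. Among Isl1, Gata3 and Mycn, control means of 49.2 ± 9.42, 44.7 ± 9.53 and 42.9 ± 8.64 TPM (SD, n = 4 each) lay within 1 SD of each other. Even these lower members exceeded at least 74% of the genes in the table by mean control TPM.

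**Figure D1:**
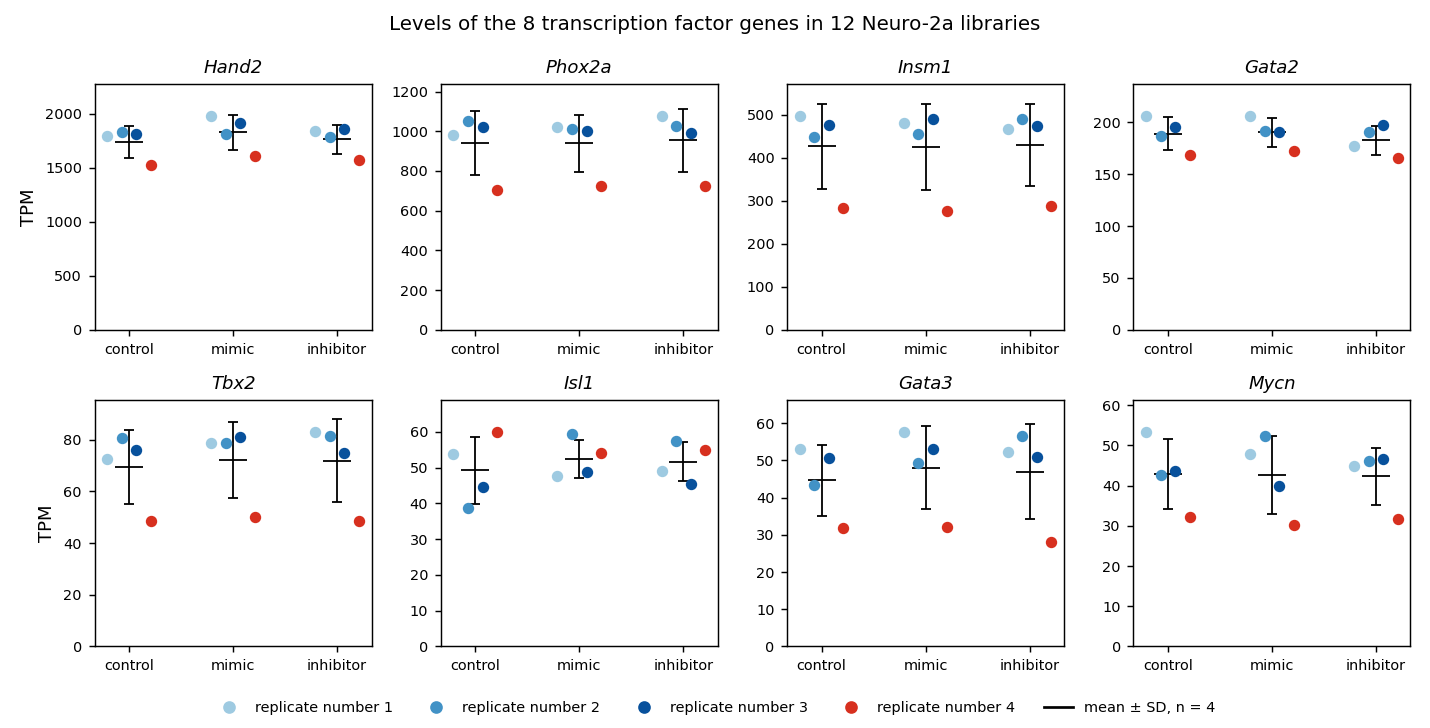
Level of each factor (TPM, linear axis from 0) in the 12 libraries by treatment, coloured by replicate number, with the mean and SD of each group of 4 (black). In 7 of the 8 panels the libraries numbered 4 (red) are the lowest of their group, while the 3 treatments have similar means.

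The line was checked against markers of the lineage. Of 10 noradrenergic markers, 8 had a mean of at least 1 TPM over the 12 libraries. Dbh, the enzyme that makes noradrenaline, stood at 64.5 ± 7.63 TPM in control (SD, n = 4). The granins Chgb and Chga stood at 2660 ± 310 and 427 ± 32.5 TPM (SD, n = 4). Th, the first enzyme of the pathway, was low in the same libraries, at 1.28, 0.895, 0.937 and 1.05 TPM in controls 1 to 4. The noradrenaline transporter gene Slc6a2 was listed at 0 in the 4 controls. Th and Slc6a2 were singled out after their values were seen. Of the markers of other cell types, Sox10 was at 0.10 TPM or less, Col1a2 at a control mean of 0.0125 TPM and Ptprc at 0 in all 4 controls. Others on the same lists were measured at higher levels, with control means of 29.9 TPM for Fn1 and 7.59 TPM for Pdgfrb (fibroblast), 18.7 TPM for Erbb3 and 3.21 TPM for Mbp (glial) and 2.27 TPM for Pecam1 (endothelial).

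The genes that work with the 8 factors were expressed to differing degrees. Lmo1, a LIM-only partner of GATA and helix-loop-helix factors, stood at 443 ± 47.6 TPM in control, and Zfpm1, a cofactor of GATA proteins also named FOG1, at 293 ± 9.06 TPM (SD, n = 4 each). Of the MYC family, Myc exceeded Mycn in every library, with a ratio of TPM values between 3.39 and 5.80, and Max, the dimer partner of both, stood at 67.9 ± 7.38 TPM in control. The receptor tyrosine kinase gene Ret stood at 832 ± 25.4 TPM in control (SD, n = 4).

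Whole-series facts bear on all comparisons below. Total counts ran from 60695388 to 74200532 per library. By edgeR's quasi-likelihood test, 0 of 13014 genes passed a Benjamini-Hochberg adjusted p of 0.05 in mimic against control, in inhibitor against control or in mimic against inhibitor. At an unadjusted p under 0.05 there were 71, 67 and 77 genes, below the share of 0.05 expected with no differences. This fit has treatment as its only term, so differences between replicate numbers add to its spread. With a block for replicate number the counts were 191, 161 and 139. DESeq2 called 3, 1 and 6 genes. In contrast, 5399 genes, or 41.5%, passed between the libraries numbered 4 and those numbered 1 to 3.

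The treatments were compared to ask whether adding or blocking miR-155 moved the core factors, and no member passed the test in any of the 3 comparisons. The deposited values are for mRNA, and whether the transfections changed the level or activity of miR-155 was not tested. Gata3 measured 57.6, 49.4, 53.2 and 32.0 TPM in mimic 1 to 4 and 52.3, 56.6, 50.8 and 28.1 TPM in inhibitor 1 to 4, beside the control values above. Each group spread over the same range, since its 1 low library was the one numbered 4. Phox2a, the member with the 6mer match, measured 1020, 1009, 998.8 and 725.9 TPM in mimic and 1078, 1025, 989.4 and 724.9 TPM in inhibitor. Group means of Phox2a were 939.8 ± 160 TPM (control), 938.3 ± 142 TPM (mimic) and 954.4 ± 157 TPM (inhibitor), with 4 libraries each, so the means differed by less than 1 SD.

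For Hand2 the means under control, mimic and inhibitor were 1740 ± 147, 1829 ± 161 and 1761 ± 132 TPM, and for Gata2 they were 189 ± 16.1, 190.3 ± 13.8 and 182.7 ± 13.9 TPM (SD, n = 4 each). These 2 genes had the tightest intervals of the fold change. In mimic against control the log2 fold change of counts was 0.04 for Hand2 (95% interval -0.14 to 0.22) and -0.02 for Gata2 (-0.17 to 0.13), each with adjusted p = 1 by edgeR. Differences larger than those bounds lay outside the intervals of this fit, which has treatment as its only term. Insm1 measured 481.4, 454.6, 489.4 and 276.6 TPM in mimic 1 to 4, and 467.4, 490.1, 473.5 and 287.9 TPM in inhibitor 1 to 4. Tbx2 measured 72.2 ± 14.7 TPM in mimic and 72.0 ± 16 in inhibitor, against 69.3 ± 14.3 in control (SD, n = 4 each). Mycn measured 42.6 ± 9.73 TPM in mimic and 42.3 ± 7.04 in inhibitor, against 42.9 ± 8.64 in control (SD, n = 4 each). Isl1 measured 52.4 ± 5.39 TPM in mimic and 51.7 ± 5.47 in inhibitor, against 49.2 ± 9.42 in control (SD, n = 4 each).

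Over the 8 members the log2 fold changes ran from -0.04 to 0.07 in mimic against control, with 4 above and 4 below 0 and a median of 0 (all genes tested, -0.0068). They ran from -0.05 to 0.08 in inhibitor against control, with 6 above and 2 below 0 and a median of 0.02 (all genes, -0.00993). The direct comparison of mimic with inhibitor gave -0.06 to 0.03, with 2 above and 6 below 0 and a median of -0.02 (all genes, 0.00243). The 2 comparisons with control share the control libraries. Every one of the 24 intervals included 0, and their outer bounds ran from -0.52 to 0.56. By edgeR 0 of 8 members were called in each comparison, where the share over all genes was 0%. Of the 24 unadjusted edgeR p-values 0 were under 0.05, and the smallest was 0.506, in the fit without a block for replicate number. With that block 0 were under 0.05 by edgeR, and the smallest was 0.3. DESeq2 and limma also called 0 members, with 0 unadjusted p-values under 0.05. With the libraries numbered 4 left out, so that 3 remained per group, edgeR again called 0 members in each comparison. The log2 fold changes were then widest for Isl1, 0.14 in mimic against control (SE 0.117) and 0.14 in inhibitor against control (SE 0.117), and for Gata3, 0.11 in inhibitor against control (SE 0.0783). No member separated the groups in any of the 3 comparisons, where groups did not overlap for 0.684%, 0.645% and 0.861% of genes.

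**Figure D2:**
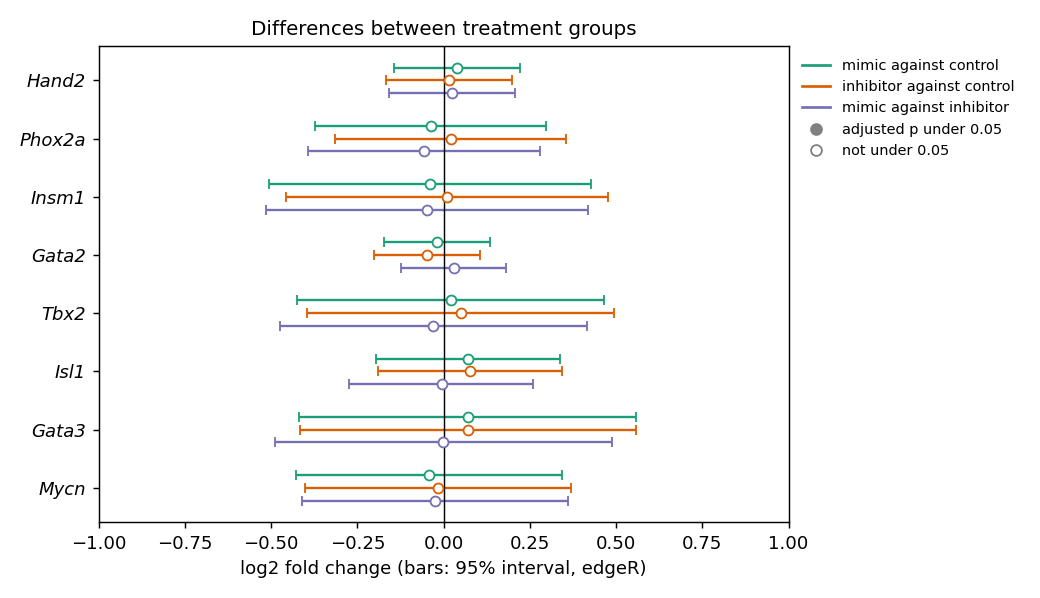
Log2 fold change of each factor (horizontal axis) with its 95% interval by edgeR for the 3 treatment comparisons, 4 libraries per group. All 24 intervals cross 0, and those of Gata2 and Hand2 are the narrowest.

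In the partner and target lists no gene was called between treatments, as none was among all genes tested. Of the genes tested, 0 of 20 other sympathoadrenal factors, 0 of 11 catecholamine genes, 0 of 20 genes of the MYC, MAX and MXD network and 0 of 26 reported MYCN or MYC targets were called by edgeR in any of the 3 comparisons. The same held for 16 cofactors, 15 INSM1 partners and neuroendocrine genes, 19 receptors and upstream signals, 7 neural crest factors and 18 mesenchymal-state factors. In mimic against control the median log2 fold change was 0.039 for the sympathoadrenal factors, -0.051 for the catecholamine genes and 0.005 for the MYCN or MYC targets.

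The replicate numbers, by contrast, separated the core factors. In the libraries numbered 4, Insm1, Gata3, Tbx2, Mycn, Phox2a, Hand2 and Gata2 were lower than in those numbered 1 to 3, in each treatment, and Isl1 was not. Of the 8 members 7 were called lower and 0 higher by edgeR with treatment in the model, where 21.1% of all genes tested were called lower and 20.4% higher. The p-values of this comparison rest on the spread left after number and treatment are fitted, and not on the spread between numbers. If a number marks 1 culture or batch, its 3 libraries are not separate replicates of that number. The comparison was chosen with earlier results of these data known. The median log2 fold change was -0.51 over the 8 members and -7.05e-05 over all genes. The same 7 members had no overlap between the 3 libraries numbered 4 and the other 9, which was the case for 36.9% of all genes in either direction (19% lower, 17.9% higher). In these bulk libraries, fewer cells of a type and less RNA per cell cannot be told apart.

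Gata3 and Insm1 changed most. Insm1 measured 283.0, 276.6 and 287.9 TPM in control 4, mimic 4 and inhibitor 4, against a lowest value of 449.5, a mean of 475.5 ± 16.3 and a highest value of 498.1 TPM in the 9 libraries numbered 1 to 3 (SD, n = 9). The number-4 values thus lay far below the whole range of the others and within a few TPM of each other. By counts Insm1 fell by 39.8%, with a log2 fold change of -0.73 (SE 0.0436, adjusted p = 1.12e-06 by edgeR), lower in 3 of 3 treatments. Gata3 measured 31.8, 32.0 and 28.1 TPM in the same 3 libraries, against 43.5 to 57.6 TPM and a mean of 51.9 ± 4.13 (SD, n = 9). It fell by 40%, with a log2 fold change of -0.74 (SE 0.0711, adjusted p = 2.38e-05 by edgeR).

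Tbx2 measured 48.4, 50.2 and 48.6 TPM in control 4, mimic 4 and inhibitor 4 and 72.5 to 82.9 TPM in the others, and fell by 36.7% (log2 fold change -0.66, adjusted p = 5.18e-05 by edgeR). Mycn measured 32.1, 30.2 and 31.8 TPM, against 39.9 to 53.3 TPM in the others, and fell by 31.3% (log2 fold change -0.54, adjusted p = 0.000154 by edgeR). The gap between the 2 sets was narrower for Mycn, whose values varied more among the numbers 1 to 3 (coefficient of variation 9.38%, against 4.41% for Tbx2). Phox2a measured 703.4, 725.9 and 724.9 TPM, against 980.3 to 1078 TPM, and fell by 28.6% (log2 fold change -0.49, adjusted p = 0.00011 by edgeR).

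The decreases were smaller for the most abundant factor and for the other GATA factor. Hand2 measured 1521, 1609 and 1568 TPM in the number-4 libraries and 1782 to 1980 TPM in the others, and fell by 14.1% (log2 fold change -0.22, adjusted p = 0.00688 by edgeR). Gata2 measured 168.0, 172.4 and 166.0 TPM, against 177.2 to 206.2 TPM, and fell by 11.5% (log2 fold change -0.18, adjusted p = 0.00734 by edgeR). Both calls were lost when control 4 was left out, with log2 fold changes of -0.19 for Hand2 (adjusted p = 0.0625 by edgeR) and -0.14 for Gata2 (adjusted p = 0.0752 by edgeR), so that 5 members were called. Over all 18 alternative settings the adjusted p of Hand2 ran from 0.000347 to 0.0625 and that of Gata2 from 0.000569 to 0.0752.

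Isl1 went the other way without passing. It measured 59.9, 54.1 and 55.0 TPM in control 4, mimic 4 and inhibitor 4, and 38.6 to 59.3 TPM in the others, so the sets overlapped. Its log2 fold change was 0.21 (95% interval 0.01 to 0.42, adjusted p = 0.0872 by edgeR). It passed without control 2, at 0.16 (adjusted p = 0.0249 by edgeR), and without mimic 2, at 0.25 (adjusted p = 0.0494 by edgeR), while without control 4 it stood at 0.135 (adjusted p = 0.409 by edgeR), so that its adjusted p over the 18 alternatives ran from 0.0249 to 0.409. The TPM of number 4 over the mean of numbers 1 to 3 was 1.31 in control, 1.04 in mimic and 1.09 in inhibitor. Isl1 also varied most among the libraries numbered 1 to 3, with a coefficient of variation of 13.2%, where the other 7 members had 3.03% to 9.38%.

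**Figure D3:**
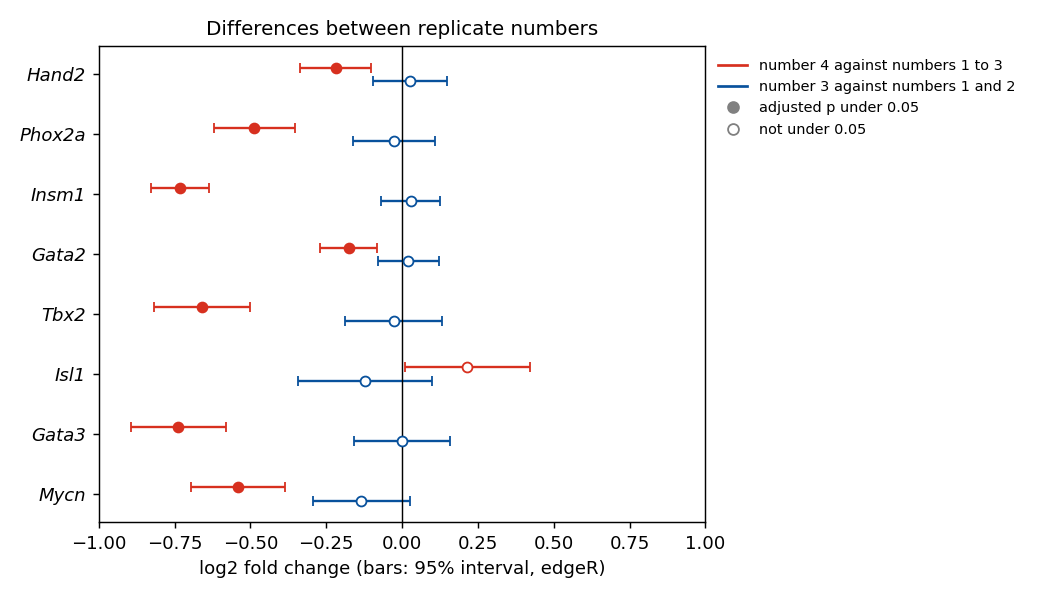
Log2 fold change of each factor with its 95% interval by edgeR for the libraries numbered 4 against 1 to 3 (red) and numbered 3 against 1 and 2 (blue), with treatment in the model. Filled points passed an adjusted p of 0.05: 7 of 8 in the first comparison, all below 0, and 0 of 8 in the second.

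The unequal decreases shifted the balance between members. The ratio of Gata2 to Gata3 was 5.28 to 5.90 in the 3 libraries numbered 4 and 3.37 to 4.29 in the other 9, on the TPM scale. The ratio of Insm1 to Gata2 was 1.60 to 1.73 against 2.33 to 2.64. Both ratios separated the 2 sets, in opposite directions. The ratio of Tbx2 to Isl1 was 0.808 to 0.929 against 1.33 to 2.09, so Isl1 exceeded Tbx2 in 3 of 3 libraries numbered 4 and in 0 of 9 others. The order of Hand2, Phox2a, Insm1 and Gata2 at the top was the same in both sets. The 8 members summed to 2848 to 2950 TPM in the libraries numbered 4 and to 3708 to 3919 TPM in the others. Hand2 and Phox2a held most of these sums, with means of 1566 and 718.1 TPM in number 4 and 1846 and 1020 TPM in the others.

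Between the numbers 1 to 3 the members differed little. In number 3 against numbers 1 and 2, edgeR called 0 of 8 members and 0% of all genes, with 0 of 8 unadjusted p-values under 0.05. DESeq2 called 89 genes there, with no member among them. Mycn had the lowest log2 fold change, -0.13 (95% interval -0.29 to 0.03), followed by Isl1 at -0.12 (-0.34 to 0.10), and the other 6 lay between -0.03 and 0.03. No member separated number 3 from numbers 1 and 2, as 1.6% of genes did. Leaving out control 2 raised the count over all genes to 582, and Isl1 then stood at -0.20 with an adjusted p of 0.0743 by edgeR.

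The share of each gene's variation was also divided between numbers and treatments, as sums of squares of log2 CPM (counts scaled to library size) over the 12 libraries. Differences between replicate numbers held 98.7% of the variation of Insm1, 94.7% of Gata3, 93.5% of Tbx2, 91.5% of Mycn and 90.4% of Phox2a. For Gata2 and Hand2 the shares were 79.5% and 76.1%. Isl1, at 42%, was the only member under the median of all genes tested, 50%. Differences between treatments held 0.409% to 5.43% of the variation of the members, where the median over all genes was 5.25%. These shares are descriptions.

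**Figure D4:**
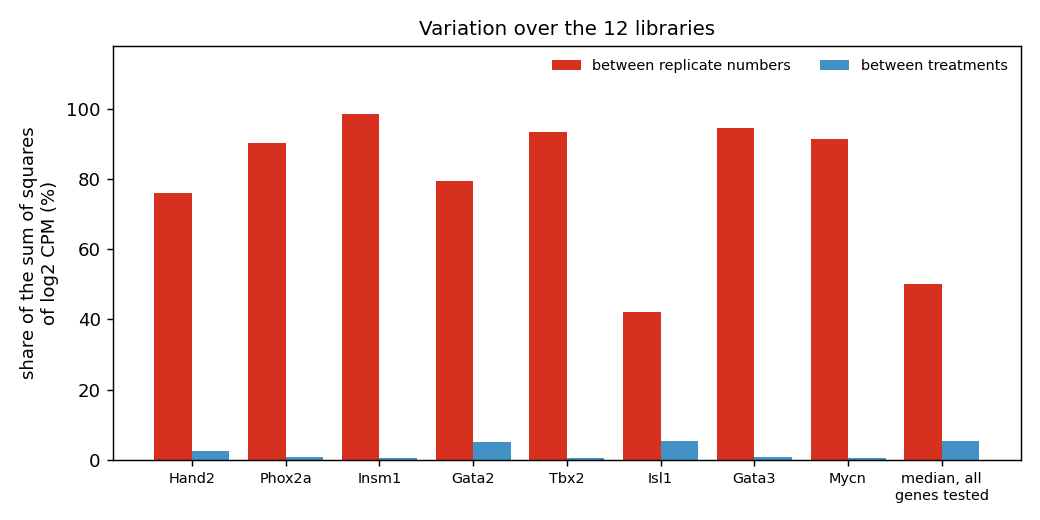
Share of the sum of squares of log2 CPM over 12 libraries (%, bars from 0) that lay between the 4 replicate numbers (red) and between the 3 treatments (blue) for each factor, beside the median of all genes tested. The red bars exceed 76% for 7 factors, while Isl1 is at 42%, and each blue bar is under 6%.

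Other genes of the lineage were set beside the core factors in the same comparison of number 4 with numbers 1 to 3. There 21.1% of all genes tested were called lower and 20.4% higher, and the list counts are read against those shares. Among the 20 other sympathoadrenal factors tested, 4 were called lower and 2 higher, with a median of -0.05. Leaving out 1 library at a time gave 4 to 8 lower, the most without control 2. Of the genes named, Meis1 (-0.46) and Ebf3 (-0.46) fell, and Zfhx3 (0.67) rose. Of 11 catecholamine genes, 4 fell and 3 rose, and 1 or 2 fell without inhibitor 4 or control 4, respectively. Dbh, a target of Phox2a, had a log2 fold change of -0.34, while Npy, the peptide co-released with noradrenaline, rose by 1.18, the aromatic amino acid decarboxylase Ddc by 0.79 and the pterin-recycling enzyme Qdpr by 0.27.

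The partner lists are read against the 21.1% of all genes called lower and the 20.4% called higher. Of 16 cofactors tested, 6 fell and 1 rose, and the 1, Ep300, was not called without control 3, control 4, mimic 3 or inhibitor 4. The inhibitors of helix-loop-helix dimers Id1, Id2 and Id3, which hold back factors such as Hand2, had log2 fold changes of -0.98, -0.75 and -0.77, and Lmo4, a LIM-only protein, one of -0.77. In the list of INSM1 partners and neuroendocrine genes, 2 of 15 fell and 4 rose (median 0.09), with 1 to 4 lower and 4 to 6 higher when 1 library was left out. Myt1, a zinc-finger repressor, fell by 0.81, Myt1l rose by 0.71, and the repressor subunits Hdac2 and Kdm1a rose by 0.42 and 0.38.

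Around Mycn, 4 of the 20 genes of the MYC, MAX and MXD network fell and 10 rose, with 3 to 6 lower and 7 to 10 higher when 1 library was left out. Myc fell by 0.99 on the log2 scale, from 221 ± 15.5 TPM (SD, n = 9) to 110 ± 2.56 TPM (SD, n = 3), alongside the -0.54 of Mycn. The MAX-binding antagonists Mxd4 and Mxd1 fell by 0.78 and 0.73, and Mxi1, another of them, rose by 0.68. Among the 26 genes reported as MYCN or MYC targets, 5 fell and 5 rose, with a median of -0.06. These counts are close to the shares of all genes tested, 21.1% lower and 20.4% higher. Of the targets, 3 fell without control 4 or inhibitor 4 and 8 without control 2. The transferrin receptor Tfrc (0.86), the hexokinase Hk2 (0.71) and lactate dehydrogenase Ldha (0.45) rose, and the nucleoside diphosphate kinase Nme1 (-0.37) fell.

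The lists of other cell states are also read against the 20.4% of all genes called higher and the 21.1% called lower. Of 18 mesenchymal-state factors, 7 rose and 1 fell, with a median log2 fold change of 0.21. When 1 library was left out, 5 to 9 rose and 1 fell. Sox9 rose by 0.99, Notch2 by 0.80 and Wwtr1, which encodes TAZ, by 0.56, and the 1 that fell was Id1, already given among the cofactors. Of 19 receptors and upstream signals, 4 rose and 3 fell, with the GDNF receptor Gfra1 at 1.24, the ALK-related kinase Ltk at 0.66 and the BMP receptors Bmpr1a and Bmpr2 at 0.62 and 0.47. Without control 4, 2 of them rose. Of 7 neural crest factors, 3 rose and 1 fell, and 1 rose without control 4 and 2 without mimic 4. Among these, Mitf fell by 1.00, and Sox6 and Ets1 rose by 0.57 and 0.41. Mitf and Sox6 were low, with means of 0.445 and 0.585 TPM in the libraries numbered 4. Their means in those numbered 1 to 3 were 0.912 and 0.4 TPM.

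**Figure D5:**
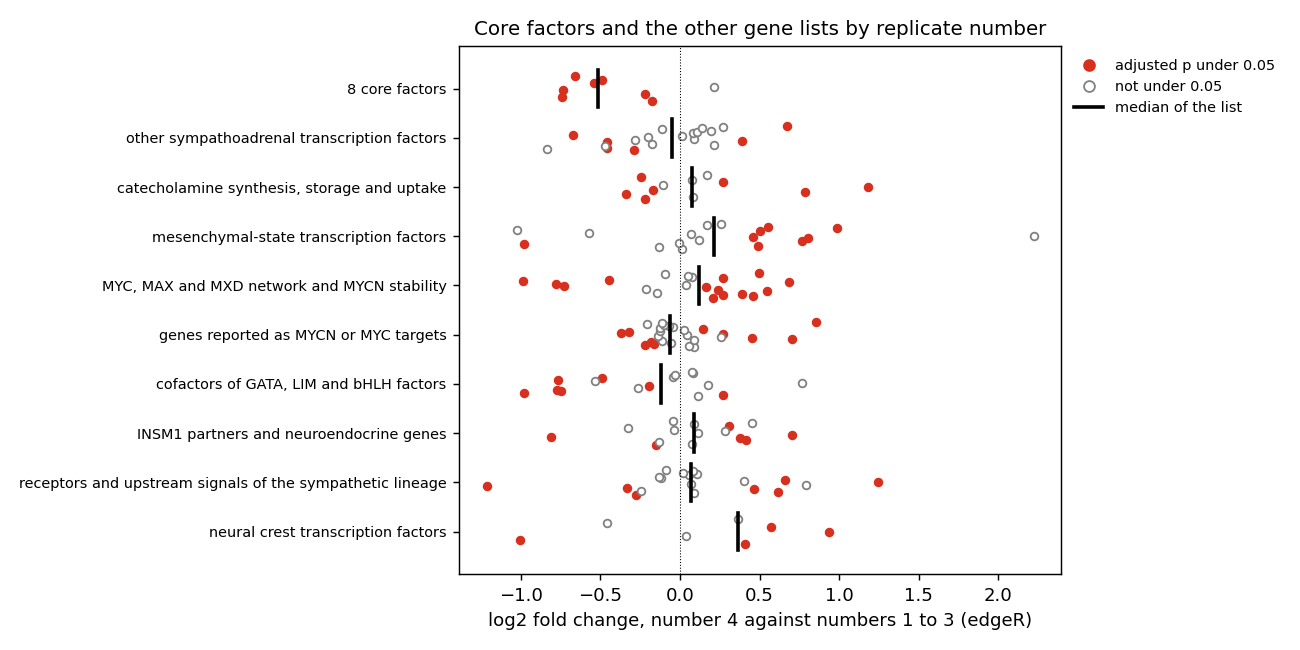
Log2 fold change (horizontal axis, edgeR) of the libraries numbered 4 against 1 to 3 for the 8 core factors and the tested genes of 9 other lists. Red points passed an adjusted p of 0.05 and black bars are medians. The core factors have the lowest median, -0.51, and the other lists spread to both sides of 0.

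Values that could move with this difference were measured as well. Calls among the markers are read against the 20.4% of all genes tested called higher and the 21.1% called lower. Total counts were 62389350 to 68734250 in the 3 libraries numbered 4, inside the range of the other 9. The 6 listed fibroblast and mesenchymal markers summed to 43 to 45 TPM in the libraries numbered 4 and 32.6 to 41.8 TPM in the others. Fn1 (0.40) and Pdgfra (0.87) were the 2 of 5 tested that were called, both higher. Pdgfra was low, with a mean of 0.625 TPM in the libraries numbered 4 and 0.345 TPM in the others. The 7 glial markers summed to 23.4 to 25.2 TPM against 19.8 to 25.9 TPM, with 0 of 4 tested called, and the 7 immune and endothelial markers to 3.07 to 3.63 TPM against 2.03 to 3.28 TPM, with Pecam1 called higher (0.53). The 10 noradrenergic markers summed to 3550 to 3570 TPM against 3140 to 4050 TPM (2 of 9 tested called higher, 4 lower). For 6 cholinergic markers the sums were 1590 to 1700 TPM against 1530 to 1690 TPM (1 of 4 tested called higher, 2 lower). A single gene held most of each sum, so a sum does not speak for the rest of its list. In the libraries numbered 4 and in the others, Fn1 had means of 36.7 and 28.3 TPM and Erbb3 19.1 and 18.5 TPM. For Pecam1 they were 2.65 and 1.87 TPM, for Chgb 2870 and 2780 TPM and for Prph, a cholinergic marker, 1540 and 1440 TPM. When 1 library was left out, 1 or 2 fibroblast markers were called higher, 0 or 1 immune and endothelial (Pecam1 not without inhibitor 4), 0 or 1 glial and 1 or 2 cholinergic, and 2 to 4 noradrenergic markers lower. Sox10, Col1a2 and Ptprc were at or near 0 throughout. Whether any other cells were present, or had a part in the result, was not tested.

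A RefSeq promoter (GRCm38.p6) was at hand for 6 of the 8 members, all but Tbx2 and Insm1. The 250 bases before the start site of these 6 were compared. They were searched on both strands for the E-box CANNTG, bound by helix-loop-helix factors, for GATAA, the core of GATA sites, and for CACGTG, the E-box form bound by MYC, which is itself a CANNTG. Of 32851 mouse promoters of this length, 66.2% held a CANNTG, 22.6% a GATAA and 6.02% a CACGTG. The most abundant factor, the one with the greatest fold change and the one that did not fall are shown, with CANNTG and GATAA matches in capitals, at chr8:57320733-57320982 (plus strand), chr2:9878601-9878850 (minus strand) and chr13:116309689-116309938 (minus strand).
Hand2 promoter: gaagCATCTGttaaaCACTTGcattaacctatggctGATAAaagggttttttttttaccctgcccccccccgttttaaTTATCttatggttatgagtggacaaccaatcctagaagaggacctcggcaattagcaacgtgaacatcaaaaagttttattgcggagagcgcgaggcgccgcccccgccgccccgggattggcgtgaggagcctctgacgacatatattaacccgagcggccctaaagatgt
Gata3 promoter: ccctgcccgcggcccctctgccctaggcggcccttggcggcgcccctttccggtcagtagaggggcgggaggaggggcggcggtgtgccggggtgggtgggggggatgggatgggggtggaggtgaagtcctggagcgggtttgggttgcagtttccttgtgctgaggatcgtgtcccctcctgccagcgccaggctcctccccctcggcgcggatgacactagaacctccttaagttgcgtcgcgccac
Isl1 promoter: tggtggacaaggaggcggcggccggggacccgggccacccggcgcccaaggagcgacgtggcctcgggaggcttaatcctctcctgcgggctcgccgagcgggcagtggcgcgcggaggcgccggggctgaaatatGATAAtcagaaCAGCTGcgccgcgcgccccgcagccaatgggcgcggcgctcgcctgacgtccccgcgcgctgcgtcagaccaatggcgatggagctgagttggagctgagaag
Hand2 held 2 CANNTG and 2 GATAA matches, Isl1 held 1 of each, and Gata3 held neither. Phox2a had 1 GATAA match and Mycn 1 CANNTG match, while both RefSeq starts of Gata2 had none. No CACGTG occurred in any of the 7 windows. GC content was 49.2% for Hand2, 54.8% for Mycn and 67.2% to 74% for the other windows, against a median of 52.4% over all promoters. These matches describe letters only, and their part in the changes of the members was not tested.

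Genes whose pattern over the 12 libraries was most like that of a member were found by the root mean square difference in mean-centred log2 CPM, among 9101 named genes whose mean CPM was 10 or more. The nearest to Phox2a was Cdt1 (0.0228), and the nearest to Hand2 was Nploc4 (0.0282). Ogfod1 (0.0283) was nearest to Gata2, Tmx1 (0.0479) to Isl1, Mettl17 (0.0543) to Tbx2 and Dppa2 (0.0829) to Mycn. Fst (0.078) was nearest to Gata3 and Pask (0.0425) to Insm1. This likeness is a description.

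Some counts could hold reads of neighbouring genes, as the counting by strand is not given in the sources used here. In GENCODE M21 (GRCm38), the antisense transcript Hand2os1 overlaps 3251 of the 3651 bases of Hand2 (chr8:57320983-57324633). Hand2os1 was not analysed here. Phox2a (chr7:101818313-101822726) overlaps the opposite-strand gene Inppl1 by 95 bases, and Inppl1 stood at 53.0 to 63.3 TPM. Gata3 (chr2:9857078-9890034) overlaps 9230102O04Rik on the same strand by 6500 bases, and that gene stood at 0 to 1.88 TPM. On the opposite strand it overlaps 4930412O13Rik, at 2.20 to 4.72 TPM, by 2670 bases. It also overlaps the antisense gene Gm13256 by 1614 bases, and Gm13256 was not analysed here. The other 5 members, Gata2 (chr6:88193891-88207032), Insm1 (chr2:146221921-146225020), Isl1 (chr13:116298281-116309689), Mycn (chr12:12936093-12941914) and Tbx2 (chr11:85832551-85841948), overlap no annotated gene.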

How the data were processed

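Total RNA was taken up in TransZol Up and sequenced from VAHTS libraries, per the labels. The authors deposited whole-number read counts per gene and, in a second table, TPM values. The submitters' processing notes list the tools fastp, STAR, featureCounts, StringTie and edgeR and the build GRCm39, with roles, versions, annotation and strand setting not given in the sources used here. Sequences and positions come from GRCm38, so genes were matched by identifier or symbol.

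The count test was edgeR 4.0.16 under R 4.3.3, with TMM scaling, filterByExpr, a robust quasi-likelihood fit of all 12 libraries and two-sided p-values adjusted by Benjamini-Hochberg over 13014 genes (threshold 0.05). Treatment contrasts had group as the only term, and contrasts of replicate numbers had number and group. The alternatives were DESeq2 1.42.0, limma 3.58.1 on log2(TPM + 1) and log2(TPM + 0.1), RLE factors, no filter, a replicate block, numbers 1 to 3 only, no group term, and each library left out. For number 3 against 1 and 2, the restriction to numbers 1 to 3 was chosen after seeing the data. The edgeR steps were tested on simulated counts, for mimic against control and for number 4 against numbers 1 to 3. In the first of these the simulated counts held no difference between replicate numbers, unlike the data.

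From each gene list up to 4 genes were named: the called ones with the largest fold changes and a mean of at least 2 CPM, or, with none called, those highest in control. Members, lists and comparisons were chosen with earlier results of these data known. The 9 lists and 5 sets of cell type markers are those in the text. Some list genes that met this rule are not reported here.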

Additional observations from a re-analysis of the deposited data

Results flagged for a closer look

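Dixon's test at the 95% level was run on 24 groups of 4 libraries (8 members in 3 treatments). In 5 groups a library's gap to its nearest neighbour passed, and each time it was the library numbered 4. About 1 in 20 is the rate for independent groups, and these 24 groups reuse the same 12 libraries. Libraries numbered 4 differed from numbers 1 to 3 in 41.5% of all genes tested (adjusted p under 0.05 by edgeR). The share of passing groups over all genes was not computed. Insm1 stood at 139 CPM in control 4, with the other controls at 236 CPM or more, and at 144 CPM in inhibitor 4, with the others at 234 CPM or more. Phox2a stood at 264 CPM in mimic 4, where the next library was at 345 CPM. Gata2 stood at 258 CPM in control 4, where the next was at 303 CPM. Mycn stood at 30.3 CPM in inhibitor 4, where the next was at 42.5 CPM.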

How the results depend on the processing

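Number 4 against numbers 1 to 3 was stable in direction: over 18 alternatives each, none of the 144 values of the 8 members changed sign, and 140 kept their side of the threshold, with the exceptions of Hand2, Gata2 and Isl1 given above. The count of genes called there was 3673 to 6580 when 1 library was left out. DESeq2 called 3 genes in mimic against control, 1 in inhibitor against control, 6 in mimic against inhibitor and 89 in number 3 against numbers 1 and 2, and edgeR called 0 in each. Leaving out 1 library gave 0 to 1, 0 to 1 and 0 to 582 genes by edgeR in mimic against control, mimic against inhibitor and number 3 against numbers 1 and 2.

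The signs of the small treatment differences were not stable, and no member was called under any alternative. On log2(TPM + 1), Phox2a and Gata2 turned to 0.0017 and 0.0115 in mimic against control, and Gata3, Isl1 and Tbx2 to 0.0467, 0.0213 and 0.0089 in mimic against inhibitor. On log2(TPM + 0.1) the values were 0.0017, 0.0115, 0.0481, 0.0217 and 0.0091. Gata3 turned to 0.001 without the filter in mimic against inhibitor. In number 3 against numbers 1 and 2 it turned to 0.0055 by DESeq2, 0.0054 with RLE factors and 2e-04 with numbers 1 to 3 only. Log2 fold changes with 1 library left out, in mimic against control, were -0.1594 to 0.0528 for Phox2a, -0.0256 to 0.0927 for Hand2, -0.0773 to 0.0083 for Gata2, -0.0669 to 0.2095 for Gata3, -0.0092 to 0.1722 for Isl1, -0.1231 to 0.1464 for Tbx2, -0.1627 to 0.0772 for Mycn and -0.1961 to 0.1086 for Insm1. In inhibitor against control they were -0.1016 to 0.1289 for Phox2a, -0.0488 to 0.0696 for Hand2, -0.0657 to 0.2498 for Gata3, -0.0029 to 0.1785 for Isl1, -0.0935 to 0.1963 for Tbx2, -0.1374 to 0.0952 for Mycn and -0.1481 to 0.1579 for Insm1, and Gata2 kept its sign. In mimic against inhibitor they were -0.167 to 0.0331 for Phox2a, -0.0259 to 0.0639 for Hand2, -0.0117 to 0.0647 for Gata2, -0.1802 to 0.1387 for Gata3, -0.0658 to 0.0533 for Isl1, -0.1762 to 0.0967 for Tbx2, -0.138 to 0.0946 for Mycn and -0.1966 to 0.0993 for Insm1. In number 3 against numbers 1 and 2 they were -0.0554 to 0.0137 for Phox2a, -0.0108 to 0.0425 for Gata2, -0.0279 to 0.05 for Gata3, -0.0723 to 0.0192 for Tbx2 and -0.0091 to 0.0536 for Insm1, and Hand2, Isl1 and Mycn kept their signs. The cause of these changes was not tested.

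Libraries share a number across treatments, but the numbers do not pair them by the labels. Correlations of same-numbered libraries, after removal of group means, ran from -0.12 to 0.756, with 9 of 12 pairs over 0.1, and 9 of 12 libraries correlated best with one of their own number. With a replicate block, edgeR called 0 genes in each treatment comparison (191, 161 and 139 at an unadjusted p under 0.05, against 71, 67 and 77 without it), and Gata3 turned to 0.0154 in mimic against inhibitor. The intervals of the treatment comparisons come from the fit without the block, and depend on it. In mimic against control the block took the SE of the log2 fold change from 0.215 to 0.0442 for Insm1, from 0.225 to 0.0719 for Gata3 and from 0.0841 to 0.0554 for Hand2.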
